A study of Homo sapiens with 12 samples.

Results

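Interferon-stimulated genes were examined with and without a SMARCA4 knock-out (KO) in the cell lines MDA-MB-231 and MDA-MB-468. The 46 genes were taken by name, as textbook targets and factors of the interferon response, and all 46 were among the 11529 genes of the deposited table. Both lines are established human triple-negative breast cancer lines, MDA-MB-468 of the basal, stem-like type and MDA-MB-231 of the mesenchymal stem-like type. The 12 RNA sequencing libraries fall into 4 groups of 3: MDA-MB-468 control, MDA-MB-468 SMARCA4 KO, MDA-MB-231 control and MDA-MB-231 SMARCA4 KO. Control cells are labelled as wild type in the sample titles and as control in the descriptions. For its protein blots the paper separates parental cells from cells with a nontargeting vector, and the labels do not say which were sequenced. If the controls carried no vector, transduction and selection cannot be told apart from the KO. KO cells received lentiCRISPR-v2 with a guide to SMARCA4, the ATPase of the SWI/SNF chromatin remodelling complex, and were selected with puromycin as pools rather than clones, so a KO group holds a mixture of edited cells. No cells are stated to have been treated with interferon, so the levels below are those of unstimulated cultures. The labels do not say whether the 3 samples of a group were separate cultures, and the p-values therefore measure only the spread between these samples.

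Interferons bind receptors that activate the kinases JAK1 and TYK2. These phosphorylate STAT proteins, among them STAT2, which acts with IRF9 in the complex ISGF3. ISGF3 binds the interferon-stimulated response element (ISRE) in front of its target genes, whereas interferon gamma acts through the gamma-activated site (GAS). The products sense viral RNA, block virus entry, degrade RNA, attach the ubiquitin-like protein ISG15 to other proteins, and restrain the pathway itself. Many tumour cells keep some of these genes on without any interferon being added.

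Promoters of 6 genes that the results turn on are shown here with their motif matches. RefSeq windows of 300 bases, from 250 before to 50 after the start (GRCh38.p14), were given for 39 of the 46 genes, and for the 10 with several windows the first listed was used. The core of the ISRE, written as GAAA, any 2 bases and GAAA again, occurred on either strand in 25 of these 39 windows (64.1%), against 1255 of all 35116 windows (3.57%). The GAS letters TTCNNNGAA, which read the same on both strands, occurred in 10 of 39 (25.6%), against 2689 of all windows (7.66%), and overlapped an ISRE match in IFI27, BST2 and IFITM1. A match describes letters in this window and is not evidence of a bound factor. Below are the 200 bases before the start, 5′ to 3′ on the strand of the gene, or for GBP4 190 before and 10 after it, with ISRE and GAS matches in capitals: GBP4 is the gene called lower in MDA-MB-468 KO cells, IFI27, IFITM3 and OAS1 are the genes called higher in MDA-MB-231 KO cells, IFI44 is a gene whose KO change differed between the lines, and IFIT1 is among the genes furthest apart between the control lines.
GBP4 (chr1:89198933-89199132, minus strand): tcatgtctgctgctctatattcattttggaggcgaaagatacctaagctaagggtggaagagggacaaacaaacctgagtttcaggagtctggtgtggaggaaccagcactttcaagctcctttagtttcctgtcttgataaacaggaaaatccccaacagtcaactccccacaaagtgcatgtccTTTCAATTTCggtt
IFI27 (chr14:94110536-94110735, plus strand): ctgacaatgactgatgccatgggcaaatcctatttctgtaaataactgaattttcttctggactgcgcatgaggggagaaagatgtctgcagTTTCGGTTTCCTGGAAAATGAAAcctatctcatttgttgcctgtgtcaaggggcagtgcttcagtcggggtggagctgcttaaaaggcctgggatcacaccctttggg
IFITM3 (chr11:320861-321060, minus strand): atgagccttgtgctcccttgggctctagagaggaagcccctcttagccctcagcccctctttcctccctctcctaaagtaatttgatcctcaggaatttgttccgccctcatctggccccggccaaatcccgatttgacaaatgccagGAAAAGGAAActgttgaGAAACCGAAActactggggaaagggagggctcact
OAS1 (chr12:112906762-112906961, plus strand): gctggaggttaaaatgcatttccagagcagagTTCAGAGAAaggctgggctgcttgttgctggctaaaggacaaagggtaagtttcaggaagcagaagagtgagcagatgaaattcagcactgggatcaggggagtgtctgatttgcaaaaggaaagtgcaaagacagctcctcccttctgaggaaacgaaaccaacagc
IFI44 (chr1:78649589-78649788, plus strand): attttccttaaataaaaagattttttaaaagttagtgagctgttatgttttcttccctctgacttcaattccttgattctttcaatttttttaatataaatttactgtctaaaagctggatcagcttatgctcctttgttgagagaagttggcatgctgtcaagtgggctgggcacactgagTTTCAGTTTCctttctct
IFIT1 (chr10:89392423-89392622, plus strand): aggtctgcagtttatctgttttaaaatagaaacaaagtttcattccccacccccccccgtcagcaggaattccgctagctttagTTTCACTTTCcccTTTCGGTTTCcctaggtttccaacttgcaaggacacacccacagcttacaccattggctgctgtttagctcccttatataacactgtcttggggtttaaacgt
The ISRE match of GBP4 spanned its start, from 4 bases before it. In IFI27 the ISRE matches lay 108 to 99 and 95 to 86 bases before the start, and the GAS match from 101 to 93 overlapped both of them. IFITM3 held ISRE matches 52 to 43 and 35 to 26 bases before its start. The OAS1 window held a GAS match 168 to 160 bases before the start and no match to the ISRE core as written here. Near the end of its printed stretch, GAAA occurs again after a single base, which the core with 2 bases between does not match. The lack of a match therefore does not show that OAS1 has no such element. IFI44 held a single ISRE match 18 to 9 bases before the start, and IFIT1 held matches 116 to 107 and 103 to 94 bases before it.

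Levels are given as log2(FPKM + 1), where FPKM is the number of fragments scaled to transcript length and to the size of the library, so that levels of different genes can be compared. Read depth is unknown, since the table holds no counts. A fold change on this scale understates the change of a gene near or under 1 FPKM. A gene was called where its Benjamini-Hochberg adjusted p of limma over all 11529 genes was under 0.05 and its absolute log2 fold change was over 0.5. SMARCA4 itself was at 6.61, 6.62 and 6.68 in MDA-MB-468 controls and 5.35, 5.48 and 5.61 in KO samples, a log2 fold change of -1.16 ± 0.08 (SE; limma adjusted p = 0.014). In MDA-MB-231 cells SMARCA4 was at 6.10, 6.18 and 6.09 in controls and 4.46, 4.64 and 4.56 in KO samples, a change of -1.57 ± 0.06 (adjusted p = 0.0014). Its mean FPKM in KO cells was 44.3% and 32.7% of control, and an RNA level does not give the share of edited cells. The lines matched their labels: in control cells EPCAM averaged 8.24 in MDA-MB-468 against 3.89 in MDA-MB-231 cells, KRT5 8.87 against 0.01, VIM 1.82 against 10.35 and AXL 0.07 against 7.96. Of 10 leukocyte markers, CD14 and CD68 were measured, and the other 8 were not analysed here.

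Control cells of the 2 lines differed in the levels of most interferon-stimulated genes, although 37 of the 46 had a mean of 1 FPKM or more in all 4 groups. Between MDA-MB-468 and MDA-MB-231 controls, 39 of the 46 genes were called, 12 higher and 27 lower in MDA-MB-468 cells, which is 84.8% of the set against 64.1% of all genes tested. Of all genes, 32.7% were called higher and 31.4% lower there. At any fold, 43 of the 46 had an adjusted p under 0.05, as had 83.8% of all genes. The median log2 difference (MDA-MB-468 minus MDA-MB-231) was -0.82 over the 46 genes and 0.01 over all genes. The groups of 3 did not overlap for 42 of the 46 genes (91.3%), 12 higher and 30 lower, against 85.5% of all genes, 43.2% higher and 42.3% lower. With control and KO samples pooled, 39 genes separated the 6 MDA-MB-468 from the 6 MDA-MB-231 samples, 11 higher and 28 lower in MDA-MB-468 cells (84.8%, against 73.2% of all genes, 37.8% higher and 35.4% lower). The authors' filter on the SD of FPKM favours genes that differ between samples, and so between the lines, which bears on all these shares. IFI16, IFI27, IFIT2, OASL, GBP4 and SAMD9L, among the genes lower in MDA-MB-468 cells, could pass it only through their MDA-MB-231 levels. The counts of lower genes and the median include them, and so are not support for a direction of the set. The lines are different tumours, and subtype, culture and genome cannot be told apart in this comparison.

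Among the genes lower in MDA-MB-468 cells were all members of the IFIT family. The 4 genes, whose products bind viral RNA, were called lower, with log2 differences from -4.11 to -1.91. IFIT1 was at 1.54, 0.95 and 0.99 in MDA-MB-468 controls and 5.04, 5.31 and 5.45 in MDA-MB-231 controls, a difference of -4.11 ± 0.18 (limma adjusted p = 2.22e-07), and its mean FPKM was 29.6 times higher in MDA-MB-231 cells. The difference was -3.54 ± 0.12 for IFIT2 and -3.35 ± 0.10 for IFIT3. BST2, which tethers budding virus to the cell surface, differed by -3.35 ± 0.15, with mean FPKM of 10.1 and 113. The IFIT genes lie together on chromosome 10, and reads of such related genes may be divided between them by the quantification, so the split within a family is uncertain.

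IFI27 and IFI16 were furthest apart. IFI27, which encodes a mitochondrial protein, was at 0.30, 0.51 and 0.00 in MDA-MB-468 controls and 5.61, 5.99 and 6.22 in MDA-MB-231 controls, a difference of -5.67 ± 0.18 (limma adjusted p = 3.91e-08). IFI16, a sensor of DNA, was at 0.08, 0.08 and 0.11 against 5.61, 5.70 and 5.79, a difference of -5.61 ± 0.07 (adjusted p = 5.87e-10). IFI16, IFI27, IFIT2, OASL, GBP4 and SAMD9L had a mean under 1 FPKM in both MDA-MB-468 groups, and none of the 46 did so in both MDA-MB-231 groups. KO changes of these 6 genes in MDA-MB-468 cells therefore concern very low levels. The authors had removed genes with an average or SD of FPKM under 1, so these 6 could pass only through their MDA-MB-231 levels. The direction of their difference between the lines was thus fixed by the filter, and its p-values are not support for it. Of the group of other induced proteins, 9 of 10 were called lower in MDA-MB-468 cells, and IFI30, a lysosomal thiol reductase, was called higher.

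A smaller set stood higher in MDA-MB-468 cells. USP18, the protease that removes ISG15 from proteins and restrains the interferon receptor, was at 3.34, 3.17 and 3.31 against 0.91, 1.06 and 1.03, a difference of 2.28 ± 0.08 (limma adjusted p = 6.87e-08). OAS1, which makes the 2-5A signal that activates RNase L, was at 3.41, 3.07 and 2.92 against 0.82, 0.95 and 1.08, a difference of 2.18 ± 0.13 (adjusted p = 1.75e-06). Its relatives OAS3 and OASL differed the other way, by -0.53 ± 0.09 and -3.22 ± 0.15. IFI30 differed by 1.86 ± 0.14, the phospholipid scramblase PLSCR1 by 1.67 ± 0.10, the ubiquitin ligase TRIM22 by 1.46 ± 0.11 and the antiviral GTPase MX1 by 1.46 ± 0.11. PARP9, PARP14 and DTX3L, neighbours on chromosome 3, were called higher in MDA-MB-468 cells, whereas PARP12 was called lower. PARP9 and DTX3L overlap in the annotation, and whether counting used strand is not given in the sources used here.

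The ISG15 system differed in both directions, with ISG15, HERC5 and HERC6 called lower and USP18 and UBE2L6 called higher in MDA-MB-468 cells. ISG15 was at 4.90, 4.65 and 4.68 in MDA-MB-468 and 7.0, 7.25 and 7.63 in MDA-MB-231 controls, a difference of -2.55 ± 0.16 (limma adjusted p = 1.85e-06). UBE2L6, which carries ISG15 to its ligase, had a mean FPKM of 74.9 against 27.5, and HERC5, the ligase, 1.54 against 15.7.

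None of the 4 transcription factors was called between the control lines, although 2 of the 4 had an adjusted p of limma under 0.05. STAT2 was at 4.19, 4.04 and 4.11 in MDA-MB-468 and 4.48, 4.56 and 4.51 in MDA-MB-231 controls, without overlap, a difference of -0.40 ± 0.07 (adjusted p = 9.06e-04) that did not reach the fold limit. IRF9 was at 4.05, 3.79 and 4.13 against 3.36, 3.80 and 3.72, a difference of 0.36 ± 0.14 (adjusted p = 0.037), and the groups overlapped. IRF1, which responds to interferon gamma, was at 5.16, 5.54 and 5.48 against 5.11, 5.26 and 5.24, and IRF7, which amplifies interferon production, at 3.29, 3.39 and 3.40 against 3.49, 3.42 and 3.69 (adjusted p of 0.14 and 0.11). The other genes not called were IFITM1, IFITM3 and GBP1. IFNAR1 and IFNAR2, the type I interferon receptor chains, were called higher in MDA-MB-468 cells, by 0.58 ± 0.09 and 1.30 ± 0.07.

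**Figure D1:**
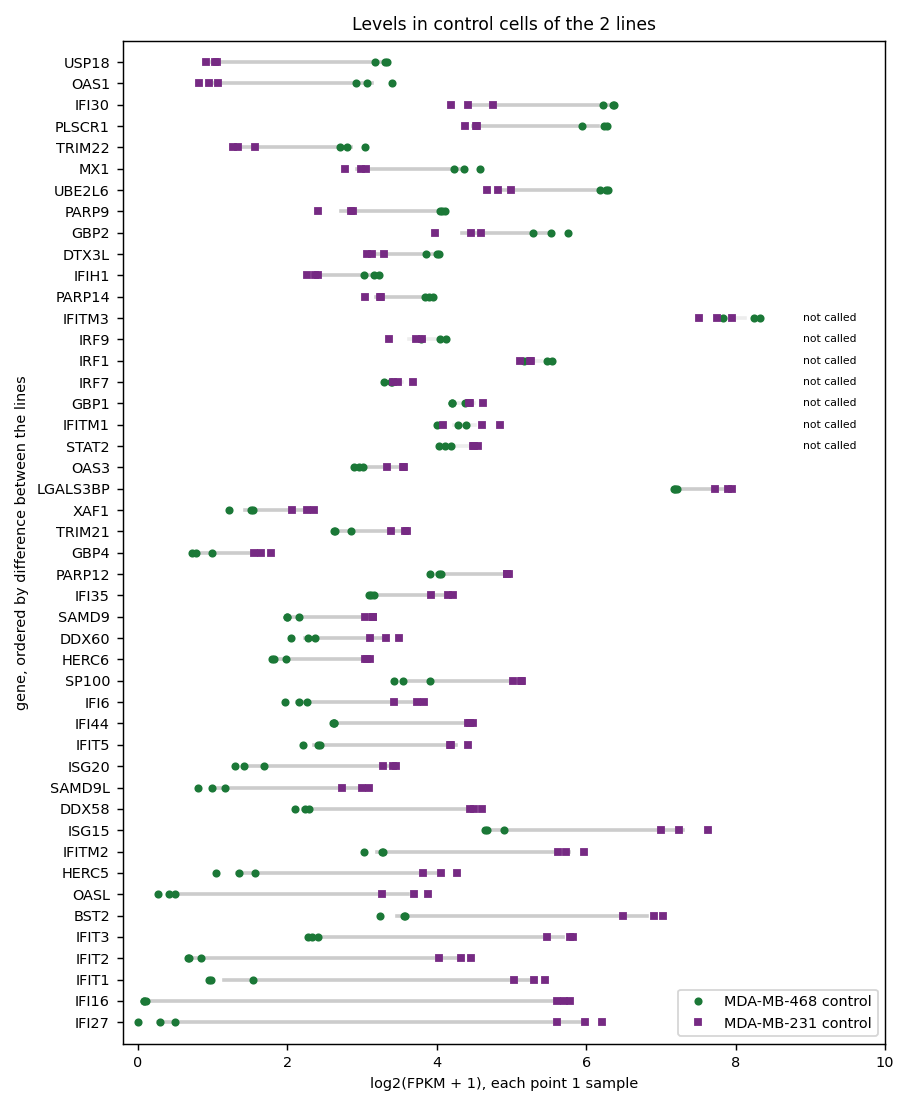
log2(FPKM + 1) of the 46 genes in control cells, each point 1 sample, circles for MDA-MB-468 and squares for MDA-MB-231, ordered by the difference between the lines, with a grey line between the group means. The 12 genes at the top were called higher and the 27 at the bottom lower in MDA-MB-468 cells, and the 7 marked genes between them were not called.

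In MDA-MB-468 cells SMARCA4 KO changed 1 of the 46 genes, GBP4 in the main fit and GBP2 with a block on the replicate number. In the main fit, which has no block, this is 2.17% of the set. Of all genes tested 2.14% were called there (1.33% higher and 0.815% lower), so the set did not stand above the background. The log2 fold changes ran from -1.50 to 0.48, 20 were above and 26 below 0, and their median was -0.01, against 0.02 over all genes. The KO and control samples did not overlap for 14 of the 46 genes, 7 higher and 7 lower (30.4%, against 31.0% of all genes, 17.5% higher and 13.5% lower). At an unadjusted p under 0.05, 15 genes passed (32.6%, against 25.1% of all genes).

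The gene called in the main fit was GBP4, a guanylate-binding GTPase induced by interferon gamma. GBP4 was at 1.0, 0.77 and 0.73 in controls and 0.16, 0.25 and 0.18 in KO samples, so every KO sample lay below every control. It fell by 0.64 on the log2 scale (SE 0.08, limma adjusted p = 0.027), with a mean FPKM of 0.79 in controls and 0.147 in KO cells. Blocking on the replicate number gave an adjusted p of 0.055 and the call was lost. It was also lost when any MDA-MB-468 sample but KO replicate 1 was left out, with adjusted p of 0.051 to 0.11.

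GBP2, a neighbour of GBP4 on chromosome 1 (GRCh37, 89571815 to 89616139 for GBP2 and 89646827 to 89664625 for GBP4), had the lowest log2 fold change of the 46 genes. GBP2 was at 5.75, 5.53 and 5.28 in controls and 4.67, 3.79 and 3.62 in KO samples, again without overlap, and its mean FPKM in KO cells was 35.7% of control. The change of -1.50 ± 0.30 had a limma adjusted p of 0.058 and was not called, but with the replicate block it was (adjusted p = 0.049). Without KO replicate 1, whose GBP2 level was the highest of the KO samples, GBP2, GBP4, TRIM22 and IFI44 were all called. GBP1, further along the same chromosome, was at 4.21, 4.37 and 4.21 in controls and 4.34, 4.59 and 4.60 in KO samples, a change of 0.24 ± 0.09 (adjusted p = 0.18). GBP3, a gene of the further list given here after its values were seen, was at 4.47, 4.59 and 4.51 in controls and 4.35, 4.02 and 4.06 in KO samples, without overlap (-0.38 ± 0.10, adjusted p = 0.090, not called). GBP genes are close in sequence, so reads could be split between them. CD14, a marker of myeloid cells, was at 5.67, 5.75 and 5.56 in MDA-MB-468 controls and 6.0, 4.82 and 4.44 in KO samples, highest of the KO samples in replicate 1 as GBP2 was (-0.57 ± 0.40, adjusted p = 0.42), and its part in these values was not tested.

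IFI44, a cytoplasmic antiviral protein, was at 2.61, 2.63 and 2.63 in MDA-MB-468 controls and 2.17, 1.81 and 1.49 in KO samples. The groups did not overlap, and the log2 change of -0.80 ± 0.17 was not called (limma adjusted p = 0.061). PLSCR1 was at 5.94, 6.24 and 6.28 against 6.55, 6.70 and 6.65, a change of 0.48 ± 0.10 (adjusted p = 0.063), the highest of the 46. The 4 IFIT genes had log2 fold changes from -0.23 to -0.12, and 0 of them were called, with 2 at an unadjusted p under 0.05 by limma.

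The remaining anchor genes of the pathway were not called in MDA-MB-468 KO cells, although all KO samples of ISG15 and IRF1 lay above their controls. STAT2 was at 4.12, 4.10 and 4.11 and MX1 at 4.45, 4.19 and 4.27 in KO samples, against 4.19, 4.04 and 4.11 and 4.58, 4.23 and 4.37 in controls. OAS1 was at 3.18, 2.86 and 2.90 and IFIT1 at 1.24, 0.92 and 0.61, both overlapping their controls. ISG15 was at 5.17, 4.96 and 5.04 against 4.90, 4.65 and 4.68 in controls, without overlap, a change of 0.32 ± 0.09 that was not called (limma adjusted p = 0.11). Among the transcription factors 0 of 4 were called and 1 had an unadjusted p under 0.05 by limma. That was IRF1, at 5.65, 5.80 and 5.66 in KO samples against 5.16, 5.54 and 5.48 in controls (0.31 ± 0.11, adjusted p = 0.16). IRF7 was at 3.74, 3.34 and 3.41 and IRF9 at 4.11, 4.00 and 3.71 in KO samples, and both overlapped their controls.

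In MDA-MB-231 cells SMARCA4 KO raised 3 of the 46 genes, IFI27, OAS1 and IFITM3, and lowered none past the call. The 3 are 6.52% of the set, against 3.70% of all genes tested, of which 2.39% were higher and 1.31% lower. Of the 46 genes, 33 had a log2 fold change above 0 (71.7%, against 47.6% of all genes), and the median was 0.20, against -0.01 over all genes. The fold changes ran from -0.46 to 1.14. KO and control samples did not overlap for 19 of the 46 genes, 15 higher and 4 lower (41.3%, against 36.0% of all genes, 16.6% higher and 19.4% lower). The median over the set was 0.08 without KO replicate 1 and 0.28 without KO replicate 3.

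IFI27 had the highest log2 fold change of the 46. It was at 5.61, 5.99 and 6.22 in MDA-MB-231 controls and 7.41, 7.03 and 6.82 in KO samples, which did not overlap. The change was 1.14 ± 0.21 (limma adjusted p = 0.031), and the mean FPKM was 61.3 in controls and 137 in KO cells. OAS1 was at 0.82, 0.95 and 1.08 in controls and 2.06, 1.90 and 1.76 in KO samples, a change of 0.96 ± 0.10 (adjusted p = 0.0100). Its mean FPKM was 0.937 and 2.76, and even in KO cells OAS1 stayed below the 7.85 FPKM of MDA-MB-468 controls. IFITM3, which blocks virus entry at endosomes, was the most abundant of the 3, at 7.51, 7.75 and 7.96 in controls and 8.36, 8.44 and 8.18 in KO samples. IFITM3 changed by 0.59 ± 0.13 (adjusted p = 0.046), whereas its neighbours on chromosome 11, IFITM1 and IFITM2, were not called (-0.09 ± 0.23 and 0.00 ± 0.09, adjusted p of 0.83 and 1.0). IFITM genes are near copies of each other, so this split is uncertain.

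These calls were close to the threshold. The calls of IFI27 and IFITM3 were lost whichever of the 6 samples was left out, with limma adjusted p of 0.052 to 0.10 for IFI27 and 0.054 to 0.14 for IFITM3, and that of OAS1 was lost without KO replicate 2 (limma adjusted p = 0.058). IFITM3 was not called with a pseudocount of 0.1 (adjusted p = 0.054). Blocking on the replicate number ended all 3 calls (limma adjusted p = 0.12 for IFI27, 0.076 for OAS1 and 0.13 for IFITM3). The numbers were not taken to pair the samples in this line. CD14, the myeloid co-receptor for lipopolysaccharide, was also called higher in MDA-MB-231 KO cells, at 0.84, 1.26 and 1.21 in controls and 2.56, 2.43 and 1.87 in KO samples, and CD68 was not called (0.14 ± 0.06, adjusted p = 0.15). The mean FPKM of CD14 was 1.16 in MDA-MB-231 and 49.6 in MDA-MB-468 controls. The part of these markers in the MDA-MB-231 results was not tested.

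The group of OAS proteins and ISG20 had higher means in MDA-MB-231 KO cells than in controls, with 1 of 4 genes called (3.70% of all genes were). All of OAS1, OAS3, OASL and the exonuclease ISG20 had log2 fold changes above 0, from 0.42 to 0.96. All 4 had an unadjusted p under 0.05 by limma, as had 17 of the 46 genes (37%) and 31.2% of all genes. OAS2 is not in this group and is given here after its values were seen. OAS2 was at 3.36, 3.39 and 3.57 in MDA-MB-231 controls and 3.65, 3.63 and 3.34 in KO samples, which overlapped. Its mean FPKM was 9.85 in controls and 10.7 in KO cells, so OAS2 did not share the separation seen for OAS1 and OAS3. OAS3 was at 3.55, 3.57 and 3.34 in controls and 3.90 in each of the KO samples, a change of 0.42 ± 0.07 under the fold limit (limma adjusted p = 0.027). OASL, a relative without synthetase activity that assists RNA sensing, was at 3.28, 3.69 and 3.89 in controls and 4.70, 4.31 and 4.25 in KO samples, a change of 0.80 ± 0.20 (adjusted p = 0.055). OAS1 and OAS3 are neighbours on chromosome 12 (GRCh37, 113343661 to 113371024 and 113375856 to 113414265).

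Past the adjusted p alone, at any fold, 8 of the 46 genes passed in MDA-MB-231 cells, 6 higher and 2 lower, which is 17.4% of the set against 10.8% of all genes. Besides IFI27, OAS1, IFITM3 and OAS3, the higher genes were USP18 and XAF1. USP18 was at 0.91, 1.06 and 1.03 in controls and 1.44, 1.32 and 1.40 in KO samples (0.39 ± 0.06, limma adjusted p = 0.023). XAF1, an antagonist of the apoptosis inhibitor XIAP, was at 2.06, 2.36 and 2.26 against 2.64, 2.61 and 2.55 (0.38 ± 0.08, adjusted p = 0.047). The lower genes were GBP1 and IFI16. GBP1 was at 4.43, 4.44 and 4.62 in controls and 4.04, 4.05 and 4.03 in KO samples (-0.46 ± 0.06, adjusted p = 0.018), and IFI16 at 5.61, 5.70 and 5.79 against 5.41, 5.18 and 5.13 (-0.46 ± 0.09, adjusted p = 0.038). For all 4 of these genes the groups did not overlap, as for 36.0% of all genes. Genes picked by a small p are likely not to overlap, so this is no further support.

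Other textbook targets in MDA-MB-231 cells were not called. MX1 was at 2.78, 3.05 and 2.99 in controls and 3.35, 3.33 and 2.98 in KO samples, ISG15 at 7.0, 7.25 and 7.63 against 7.64, 7.42 and 7.22, and IFIT1 at 5.04, 5.31 and 5.45 against 5.70, 5.42 and 5.26. Each of these groups overlapped. GBP2 was at 3.98, 4.59 and 4.46 against 4.72, 4.71 and 4.47, GBP4 at 1.78, 1.66 and 1.56 against 2.22, 1.78 and 1.85, and IFI44 at 4.42, 4.49 and 4.45 against 4.93, 4.59 and 4.38. STAT2 was at 4.73, 4.65 and 4.46, IRF7 at 3.37, 3.63 and 3.47 and IRF9 at 3.91, 4.09 and 3.70 in KO samples. IRF1 was at 5.11, 5.26 and 5.24 in controls and 5.51, 5.46 and 5.34 in KO samples, without overlap (0.23 ± 0.07, limma adjusted p = 0.080). Of the 4 transcription factors 0 were called, and 1 had an unadjusted p under 0.05 by limma.

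**Figure D2:**
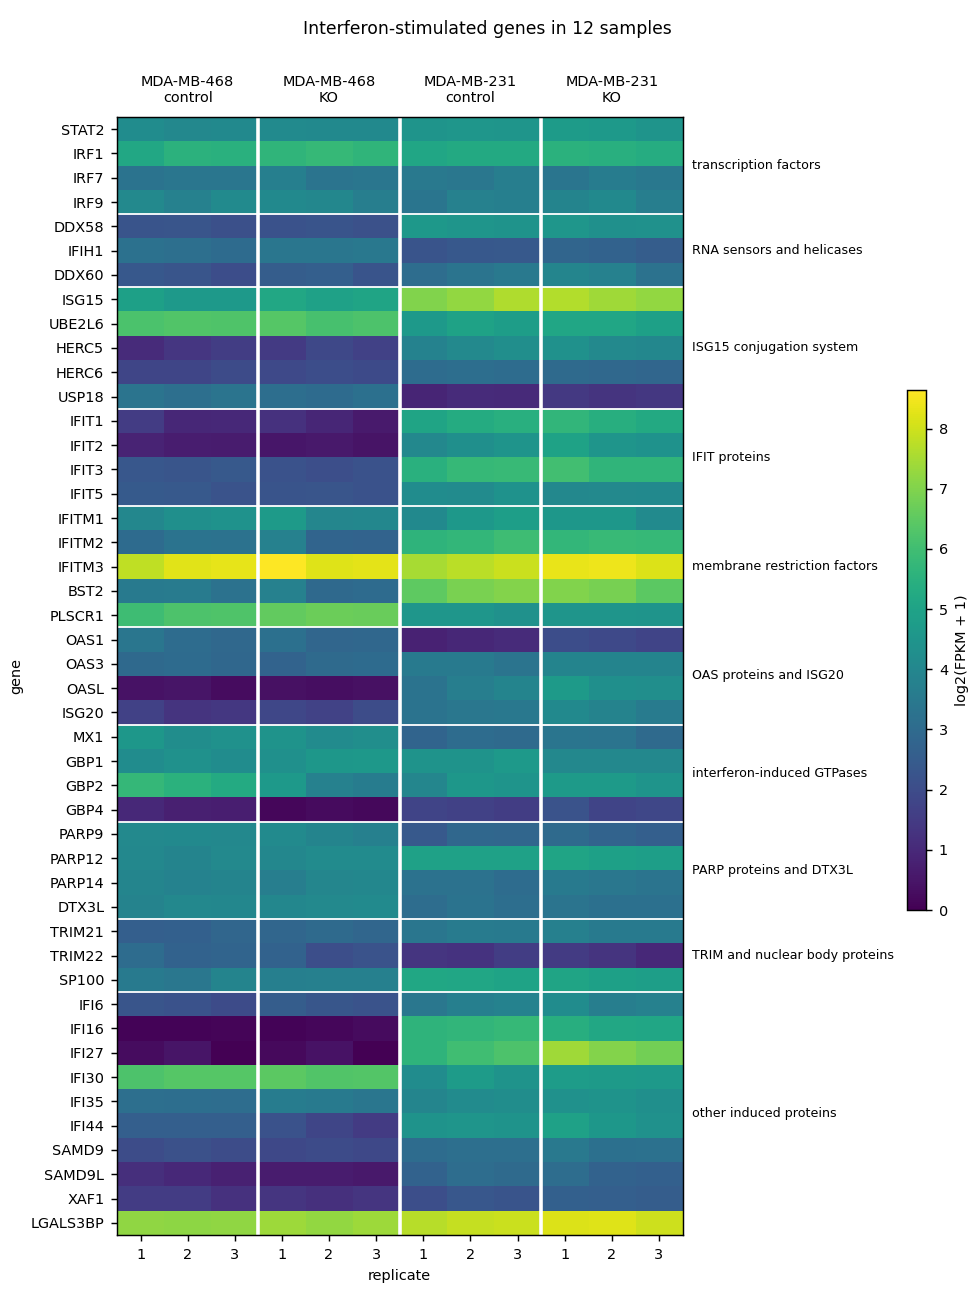
log2(FPKM + 1) of the 46 genes, grouped by role, in each of the 12 samples. The contrast between the lines, such as the dark IFI27 and IFI16 cells of the MDA-MB-468 samples, is wider than that between control and KO samples of a line.

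The members varied together between libraries within MDA-MB-231 cells. Control replicate 1 was the lowest of the 3 controls for 34 of the 46 genes, as it was for 40.2% of all genes. KO replicate 1 was the highest KO sample for 35 of 46 (30.4% of all genes), and KO replicate 3 the lowest for 36 of 46 (32.3%). The median deviation of the 46 genes from their group mean was -0.14 in control replicate 1, 0.13 in KO replicate 1 and -0.13 in KO replicate 3, while over all genes it was -0.01, -0.01 and 0.01. In MDA-MB-468 cells these medians lay between -0.03 and 0.03. The median level of the 46 genes was 3.95, 4.17 and 4.32 in MDA-MB-231 controls and 4.37, 4.20 and 4.11 in KO samples, which overlap, against 3.20, 3.14 and 3.06 and 3.28, 3.0 and 3.01 in MDA-MB-468 cells.

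**Figure D3:**
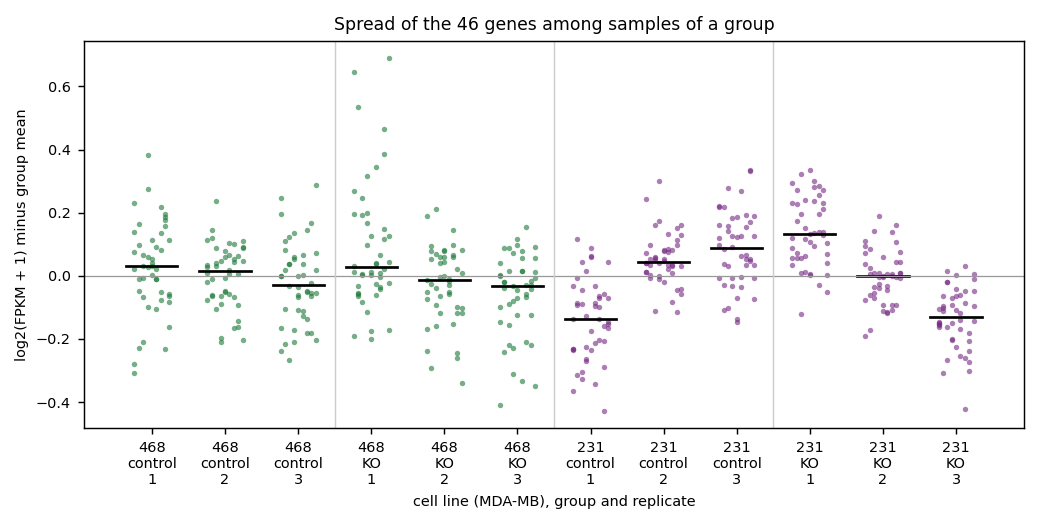
Deviation of each of the 46 genes from the mean of its group, in log2(FPKM + 1), for the 12 samples, with a bar at the median of the sample. In MDA-MB-231 cells the medians of control replicate 1 (-0.14) and KO replicate 3 (-0.13) lay below 0 and that of KO replicate 1 (0.13) above it.

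The KO change was compared directly between the lines as an interaction in a fit of all 12 samples. For 10 of the 46 genes the change differed, 2 more positive and 8 more negative in MDA-MB-468 cells, which is 21.7% of the set against 8.71% of all genes tested (4.29% more positive and 4.41% more negative). Among these 10, IFI16, IFI27, OASL and GBP4 were under 1 FPKM in both MDA-MB-468 groups. They passed the authors' filter only through MDA-MB-231 cells, so the share of 21.7% is not support for a difference of the set. With a block on the replicate number 8 were called, without OASL and XAF1. The median difference over the set was -0.16, against 0.02 over all genes. It was -0.06 without MDA-MB-231 control replicate 1 and -0.27 without MDA-MB-231 KO replicate 3. With samples scaled to the same 75th percentile, 1 of 10 called members and 394 of 1004 called genes were more positive in MDA-MB-468 cells, against 2 of 10 and 495 of 1004 without this scaling.

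The KO change of GBP2 (MDA-MB-468 minus MDA-MB-231) differed most, by -1.79 ± 0.35 (limma adjusted p = 0.0076), from a change of -1.50 in the first line and 0.29 in the second. GBP4 differed in the same direction, by -0.93 ± 0.16 (adjusted p = 0.0042), while GBP1 differed in the opposite one, by 0.70 ± 0.12 (adjusted p = 0.0042), from 0.24 to -0.46 in the same order. Within each line the log2 changes of these 3 genes were not all of the same sign. IFI44 differed by -0.98 ± 0.22 (adjusted p = 0.017).

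OAS1 differed by -1.11 ± 0.19 (limma adjusted p = 0.0037), with a change of -0.15 ± 0.15 in MDA-MB-468 cells against 0.96 ± 0.10 in MDA-MB-231 cells. The difference was -1.19 ± 0.27 for IFI27 (adjusted p = 0.016), -0.84 ± 0.21 for OASL (adjusted p = 0.024) and 0.53 ± 0.12 for IFI16 (adjusted p = 0.014). In MDA-MB-468 KO samples IFI27 was at 0.23, 0.43 and 0.00, OASL at 0.40, 0.31 and 0.38 against 0.42, 0.51 and 0.28 in controls, and IFI16 at 0.10, 0.14 and 0.25. At levels this low a log2(FPKM + 1) change in MDA-MB-468 cells is bound to be small, and with a pseudocount of 0.1 the calls of IFI27 (-1.32, adjusted p = 0.33) and OASL were lost.

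USP18 differed by -0.55 ± 0.10 (limma adjusted p = 0.0069). It was at 3.11, 3.02 and 3.20 in MDA-MB-468 KO samples, a change of -0.16 ± 0.07, against 0.39 ± 0.06 in MDA-MB-231 cells. XAF1 differed by -0.52 ± 0.14 (adjusted p = 0.030). It was at 1.55, 1.52 and 1.23 in MDA-MB-468 controls and 1.33, 1.18 and 1.34 in KO samples. The difference was not called for IFITM3 (-0.35 ± 0.22, adjusted p = 0.31), which was at 7.82, 8.24 and 8.33 in MDA-MB-468 controls and 8.64, 8.21 and 8.27 in KO samples, so its change is not shown to differ between the lines. With any 1 of the 12 samples left out, the other 7 called differences stayed past both thresholds, while OASL, XAF1 and IFI16 each lost their call without some samples. OASL lost it without MDA-MB-468 control replicate 1 or 2 or KO replicate 2, or without MDA-MB-231 KO replicate 1 (adjusted p of 0.053 to 0.059). XAF1 lost it without those samples, MDA-MB-231 control replicate 1 or MDA-MB-231 KO replicate 2 (0.062 to 0.076). After quantile normalization USP18 (-0.42) and IFI16 (0.44) were under the fold limit, as was IFI16 after 75th percentile scaling (0.49). IFI16 was also under it, between 0.47 and 0.50, without MDA-MB-231 control replicate 3, MDA-MB-231 KO replicate 2 or 3, or MDA-MB-468 KO replicate 3.

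**Figure D4:**
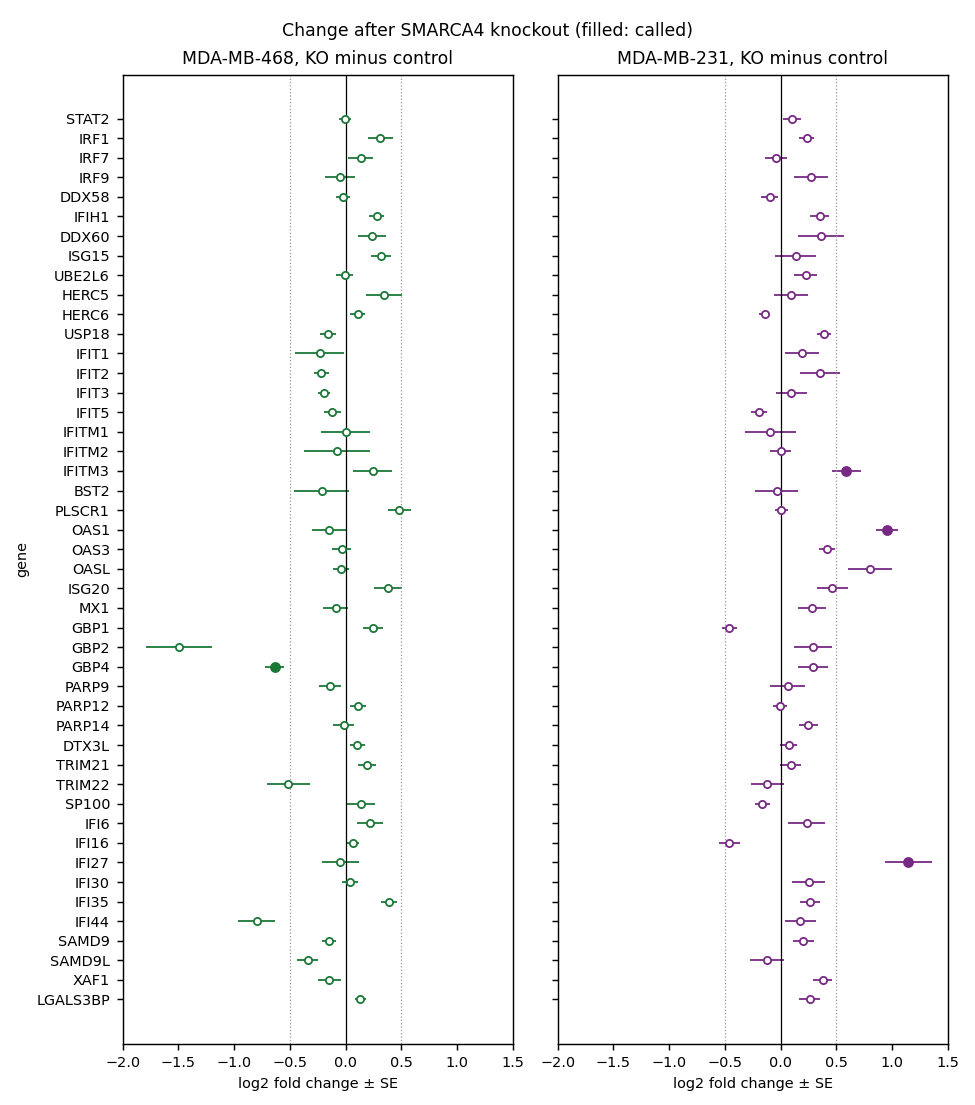
log2 fold change (KO minus control) of the 46 genes in each line, with bars of 1 SE from limma. GBP2, GBP4 and IFI44 lie to the left in MDA-MB-468 cells, and IFI27, OAS1 and OASL to the right in MDA-MB-231 cells.

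**Figure D5:**
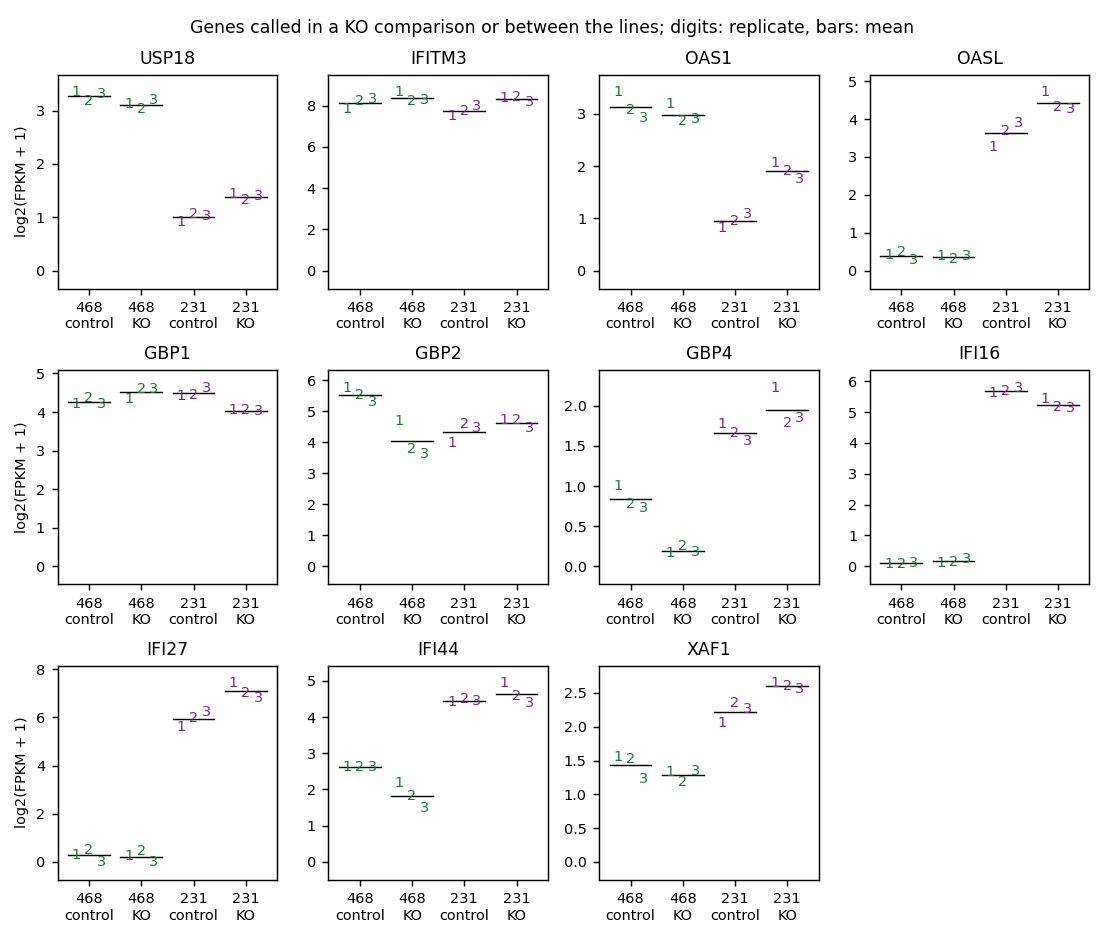
log2(FPKM + 1) in every sample for genes called in a KO comparison or in the difference between the lines, digits marking the replicate and bars the group mean. For IFI27 and OAS1 the MDA-MB-231 KO samples lie above all MDA-MB-231 controls, and for GBP2 and GBP4 the MDA-MB-468 KO samples lie below all MDA-MB-468 controls.

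The upstream components of the pathway comprise receptors, kinases, STAT proteins and their inhibitors. Of 35 measured, limma called 0 in either line, against 2.14% of all genes in MDA-MB-468 and 3.70% in the other line. At an unadjusted p under 0.05 there were 6 (17.1%, against 25.1% of all genes) and 10 (28.6%, against 31.2%). JAK1 changed by -0.07 ± 0.06 and -0.13 ± 0.10, IFNAR1 by -0.23 ± 0.08 and -0.01 ± 0.08, and IFNAR2 by -0.12 ± 0.09 and 0.15 ± 0.06 in the lines in this order, none of them called. The difference between the lines was called for 1 of the 35 (2.86%, against 8.71% of all genes), SOCS3, an inhibitor of JAK kinases (0.91), named after its value was seen.

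A further list of 42 measured interferon-stimulated genes gave 0 calls by limma in MDA-MB-468 cells, with 14 at an unadjusted p under 0.05 (33.3%, against 25.1% of all genes). In MDA-MB-231 cells 2 were called (4.76%, against 3.70% of all genes), both higher. LY6E, a membrane-anchored protein, was at 6.31, 6.80 and 6.88 in MDA-MB-231 controls and 7.59, 7.63 and 7.43 in KO samples (0.89 ± 0.16, adjusted p = 0.031). TYMP, thymidine phosphorylase, was at 2.80, 2.66 and 2.60 against 3.75, 3.70 and 3.53 (0.97 ± 0.08, adjusted p = 0.0078). Neither gene overlapped between the groups. TYMP kept its call with any MDA-MB-231 sample left out, and LY6E only without control replicate 1 (adjusted p otherwise 0.054 to 0.11). Neither was called with the replicate block. The median change over the 42 genes was 0.04 in MDA-MB-468 cells and 0.09 in the other line, and 26 of 42 were above 0 in the latter (61.9%, against 47.6% of all genes). The KO change of 4 of the 42 genes differed between the lines (9.52%, against 8.71% of all genes).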

How the data were processed

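Log2(FPKM + 1) values of 11529 genes in 12 samples were used as the authors deposited them. Per the methods, reads passed through Trimmomatic and a 2-pass STAR alignment to hg19, genes were quantified with RSEM, and the authors removed genes with an average or SD of FPKM under 1. The library kit was TruSeq Stranded mRNA. The table holds no counts, so depth is unknown and no counting interval was computed.

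Each line was fitted alone (3 KO against 3 control samples) with limma 3.58.1 in R 4.3.3, using lmFit and eBayes without a trend and Benjamini-Hochberg adjustment over all genes. The lines' controls were fitted the same way, and the difference in KO change was the interaction in a fit of 12 samples in 4 groups. Values after ± are SE. The scripts were tested on simulated data. The 46 genes and the further lists were chosen with earlier results of these data known. Values in every sample are given for genes called in a KO comparison or in the difference, and for STAT2, IRF9, IRF1, IRF7, ISG15, IFIT1, MX1 and OAS1; the 6 genes with the largest called difference in each direction are named between control lines; genes of the further lists are named where called in a KO comparison, together with JAK1, IFNAR1 and IFNAR2. A gene of the named-gene rule is not reported here. PLSCR1, OAS3 and other genes given beyond this rule were chosen after their values were seen. Positions are from GENCODE 44 on GRCh37, and promoter windows from RefSeq (GRCh38.p14).

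The replicate numbers come from the sample titles. Deviations from the group means correlated at 0.25, 0.16 and 0.12 between same-numbered MDA-MB-468 control and KO samples, so the numbers were taken as a possible pairing. The main fits used no block, and fits blocked on the numbers are given beside them. This pairing is uncertain, since control replicate 3 correlated at 0.13 with KO replicate 2, against 0.12 with KO replicate 3. In MDA-MB-231 cells the correlations were -0.05, 0.07 and -0.11. Alternatives were a pseudocount of 0.1, a filter on the mean log2 value, an intensity trend, 75th percentile scaling, quantile normalization, a fold limit of 1, replicate blocks, 1 fit of all samples and leaving out each sample.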

Additional observations from a re-analysis of the deposited data

Results flagged for a closer look

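For 10 genes the log2 change under SMARCA4 KO differed between the lines by the interaction test of limma. As the value in MDA-MB-468 minus the value in MDA-MB-231, the difference was -1.79 for GBP2, -1.19 for IFI27, -1.11 for OAS1, -0.98 for IFI44, -0.93 for GBP4, -0.84 for OASL, -0.55 for USP18 and -0.52 for XAF1. It was 0.70 for GBP1 and 0.53 for IFI16. The adjusted p-values ran from 0.0037 for OAS1 to 0.030 for XAF1. IFI16, IFI27, OASL and GBP4 were under 1 FPKM in both MDA-MB-468 groups and passed the authors' filter only through MDA-MB-231 cells. Their changes in MDA-MB-468 cells are compressed on this scale, which limits what their differences show. With a block on the replicate number the calls of OASL and XAF1 were lost. Groups held 3 samples, so single samples were not tested as outliers.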

How the results depend on the processing

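In MDA-MB-468 cells 2 members were called with only genes of a mean log2 value over 2 (GBP2 and IFI44; 400 of all genes), 3 in 1 fit of all 12 samples (537 genes), 0 with a fold limit of 1 (53 genes), and 0 with blocks by the number in the sample descriptions (0 genes, with 2218 at an unadjusted p under 0.05). With the replicate block by title number, 1 member (GBP2) and 241 genes were called. In MDA-MB-231 cells a fold limit of 1 left 1 member (IFI27) and 85 genes. There the titles' numbers were not taken to pair the samples. As with control replicate 3 of MDA-MB-468, not every MDA-MB-231 sample correlated best with its own number. With the replicate block 0 members and 0 genes were called, and the adjusted p was 0.12 for IFI27, 0.076 for OAS1, 0.13 for IFITM3, 0.095 for LY6E and 0.064 for TYMP, with 17 members and 3126 genes at an unadjusted p under 0.05. USP18 was called in MDA-MB-231 cells with a pseudocount of 0.1, and OASL with 75th percentile scaling, the filter on the mean, or 1 fit of all samples. In the difference IFIT2 was called with a pseudocount of 0.1 or quantile normalization. There the block left 8 members, without OASL and XAF1, and the fold limit of 1 left 3 members and 217 genes. The block changed no other member's call beyond those named. The fold limit of 1 left 4150 genes between control lines, where the median over members was -1.02 with a pseudocount of 0.1 and -0.98 after quantile normalization. Of 252 genes called in MDA-MB-468 cells after quantile normalization 135 were higher, and of 417 in MDA-MB-231 cells 237. After 75th percentile scaling 343 of 462 called in MDA-MB-231 cells were higher.

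With 1 sample left out, 0 to 4 members and 0 to 474 genes were called in MDA-MB-468 cells, 0 to 2 members and 99 to 311 genes in MDA-MB-231 cells, 8 to 11 members and 724 to 1190 genes in the difference, and 38 to 40 members and 7351 to 7424 genes between controls. No gene was called in MDA-MB-468 cells without control replicate 2 or KO replicate 2, and 474 were without KO replicate 1. The median over members then ran from -0.017 to 0.041 and from 0.08 to 0.28 in the lines, from -0.27 to -0.055 in the difference and from -0.88 to -0.80 between controls. Some uncalled changes near 0 turned sign. STAT2 in MDA-MB-468 cells was at 0.00080 after quantile normalization. With 1 sample left out, STAT2 ran from -0.041 to 0.035, IRF9 from -0.15 to 0.060 and MX1 from -0.17 to 0.0023 there, IRF7 from -0.11 to 0.038 and ISG15 from -0.0081 to 0.30 in MDA-MB-231 cells, and the difference for IRF1 from -0.039 to 0.15. The cause was not tested for these. Unknown depth limits the values under 1 FPKM most.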
